A study of Mus musculus with 9 samples.

Results

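The transcripts of 10 genes of the muscle atrophy programme were followed in injured tibialis anterior muscle of young and old mice. They are Trim63, Fbxo32, Fbxo30, Fbxo21, Foxo1, Foxo3, Foxo4, Klf15, Sesn1 and Ddit4, and each was chosen by name and found as 1 Ensembl gene among the 54532 genes counted. RNA was sequenced in 9 libraries from C57/BL6J mice, 3 libraries in each of 3 groups. Young PBS mice (4 months) and old PBS mice (24 months) received barium chloride, which destroys muscle fibres and starts regeneration, and then 3 injections of PBS into the muscle. Old rMETRNL mice (24 months) received the same injury and 3 injections of recombinant METRNL, a secreted protein, at a dose given as 0.1 ug in one place of the paper and 0.1 ng in another. All 3 groups were injured, so no group gives the level of these genes in resting muscle. The paper describes whole muscle at day 8, whereas the labels describe a cell suspension of damaged muscle and the series text gives day 4. The libraries are numbered 1, 2 and 3 in the young PBS and old rMETRNL groups and 2, 3 and 4 in the old PBS group, and the labels do not say from which animals they came, so p-values measure the spread between these libraries.

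Muscle loses protein chiefly through the ubiquitin-proteasome system, in which an E3 ligase marks a protein for degradation. Trim63 (MuRF1) and Fbxo32 (atrogin-1) are the ligases by which muscle atrophy is usually followed. FoxO transcription factors switch on both ligases when Akt signalling is low, and the glucocorticoid receptor and its target Klf15 act on the same programme. Each of the 10 genes was measured well above the detection limit, with 106 counts for the lowest value (Ddit4 in old PBS 2) and 4738 for the highest (Fbxo32 in old PBS 4). Levels of 1 gene are given as CPM, which is the count of a gene scaled to the size of its library, with TMM factors that correct for library composition.

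The positions of the genes are those of the GRCm38 annotation, whereas the processing notes of the submitters name the build mm9. The ligase genes lie at chr4:134315120-134329629 (Trim63, plus strand), chr15:58175879-58214932 (Fbxo32, minus strand), chr10:11281330-11298052 (Fbxo30, plus strand) and chr5:117976730-118010201 (Fbxo21, plus strand). The FoxO genes lie at chr3:52268336-52353221 (Foxo1, plus strand), chr10:42181841-42276755 (Foxo3, minus strand) and chrX:101254528-101260873 (Foxo4, plus strand). Klf15 lies at chr6:90462576-90475238 on the plus strand, Sesn1 at chr10:41809935-41908424 on the plus strand and Ddit4 at chr10:59949669-59951834 on the minus strand. The counts are of reads on exons. Fbxo32 shares exon bases with Gm15943 and Foxo1 with Gm20402, both on the opposite strand, and since no source used here gives a strand setting, reads of these pairs cannot be told apart.

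Promoter sequence from RefSeq on GRCm38.p6 was matched for 8 of the 10 genes, all but Fbxo32 and Foxo4, in 9 windows that run from 250 bases before a start site to 50 after it. The FoxO site GTAAACA was searched on both strands and stood in the window of Trim63 at position -194 and in 1 of the 2 windows of Sesn1 at position 22, counted from the start site, whereas 3.65% of all 32851 windows hold it. The short forkhead core AAACA, which is contained in the FoxO site, stood in windows of Trim63, Foxo1 and Sesn1 and stands in 50.5% of all windows. In Trim63 the FoxO site, read as TGTTTAC on the strand shown, directly follows TGTTCT, the reverse complement of the glucocorticoid receptor arm AGAACA that 19.0% of windows hold. The complete palindromic glucocorticoid receptor site, which 0.00913% of windows hold, was in none of the 9 windows as an exact match. In Trim63, however, the letters before this arm match the rest of the palindrome in all fixed letters but the opening one. A palindrome complete but for that letter thus adjoins the FoxO site. Near matches were not searched, so the share of windows that hold one is not known. The 250 bases before the start are shown for Trim63, the only matched ligase gene whose window held the FoxO site, and for Foxo1, the FoxO gene of the 10 whose old PBS level did not overlap with the other groups. Capitals mark the adjoining TGTTCT and TGTTTAC and the TATA box in Trim63, and Foxo1 holds none of them. A match of letters is a description and not a bound site.
Trim63, chr4:134314870-134315119, plus strand: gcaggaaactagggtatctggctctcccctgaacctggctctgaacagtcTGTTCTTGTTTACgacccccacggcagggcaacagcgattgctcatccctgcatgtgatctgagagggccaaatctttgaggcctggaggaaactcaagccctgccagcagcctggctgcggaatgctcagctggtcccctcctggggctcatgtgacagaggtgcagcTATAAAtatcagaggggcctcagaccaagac
Foxo1, chr3:52268087-52268336, plus strand: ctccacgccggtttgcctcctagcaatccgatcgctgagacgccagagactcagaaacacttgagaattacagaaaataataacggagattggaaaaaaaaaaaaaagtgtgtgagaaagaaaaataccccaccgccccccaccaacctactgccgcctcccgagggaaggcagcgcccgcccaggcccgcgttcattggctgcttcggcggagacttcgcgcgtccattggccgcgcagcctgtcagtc

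The libraries held between 16238700 and 22522560 counts, and a count of 3 corresponded to 0.133 to 0.185 CPM, a floor set by counting error alone. Pairs of replicates were farther apart than sampling noise allows. Old PBS was the least even group. The coefficient of variation was larger in old PBS than in both other groups for 9 of the 10 genes, Foxo3 being the exception, and it reached 40.7% for Klf15. Old PBS 4 held the highest level of 6 of the genes and old PBS 3 stood apart from old PBS 2 and old PBS 4. Mature fibre transcripts took 14.1% of the counts of old PBS 3 and 17.3% and 18.1% of those of old PBS 4 and old PBS 2, and the 11 markers of new fibres summed to 5163 CPM in old PBS 3 against 731 to 2402 CPM in the other libraries. Transcripts of the mitochondrial genome made up 10.5% and 12.3% of counts in old PBS 2 and old PBS 4 and 5.34% to 7.58% elsewhere. Markers of fibro-adipogenic cells summed to 6605 to 10437 CPM in old PBS, 13485 to 18207 CPM in young PBS and 12268 to 19365 CPM in old rMETRNL. In bulk RNA, fewer cells of a type and less RNA per cell cannot be told apart. The mean log2 CPM of 12 brain markers was 1.74 to 3.44 in old PBS and -1.17 to -0.62 in the other groups, and that of 10 liver markers was 0.14 to 2.31 against -2.79 to -2.29. Summed, the brain markers reached 249 to 465 CPM in old PBS, 237 to 319 CPM in young PBS and 218 to 288 CPM in old rMETRNL, and the liver markers 30.4 to 105 CPM, 1.69 to 13.1 CPM and 7.73 to 10.7 CPM. Mobp and Snap25 of brain and Apoa1 and Ttr of liver were at 0 counts in every young PBS and old rMETRNL library. Groups did not overlap for 8 of the brain and 4 of the liver markers, and the part of any of these lists in the results below was not tested.

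Most of the 10 genes had a higher mean in old PBS than in young PBS, by at most 0.88 on the log2 scale, and in old rMETRNL against young PBS the largest difference was -0.36 (Klf15). Fbxo32, the F-box ligase atrogin-1, showed the largest difference in both comparisons with old PBS. The ligase Fbxo21 and the factor Foxo1 were higher, and Sesn1, an inhibitor of mTORC1, was lower, in all 3 old PBS libraries than in any library of the other groups. None of the 10 passed the adjusted threshold of edgeR's quasi-likelihood test in any comparison, where 0.0643% of 15560 genes (old PBS against young PBS), 0.108% of 15682 (old rMETRNL against old PBS) and 0% of 15396 (old rMETRNL against young PBS) passed. Without adjustment, p was under 0.05 for 3 of the 10 genes in the first comparison, for 3 in the second and for none in the third, and for 5.91%, 8.07% and 2.41% of all genes tested. DESeq2 called none of the 10 either, among 265, 354 and 0 genes called. The first 2 comparisons share the old PBS libraries, so that a high or low old PBS value appears in both with opposite sign.

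**Figure D1:**
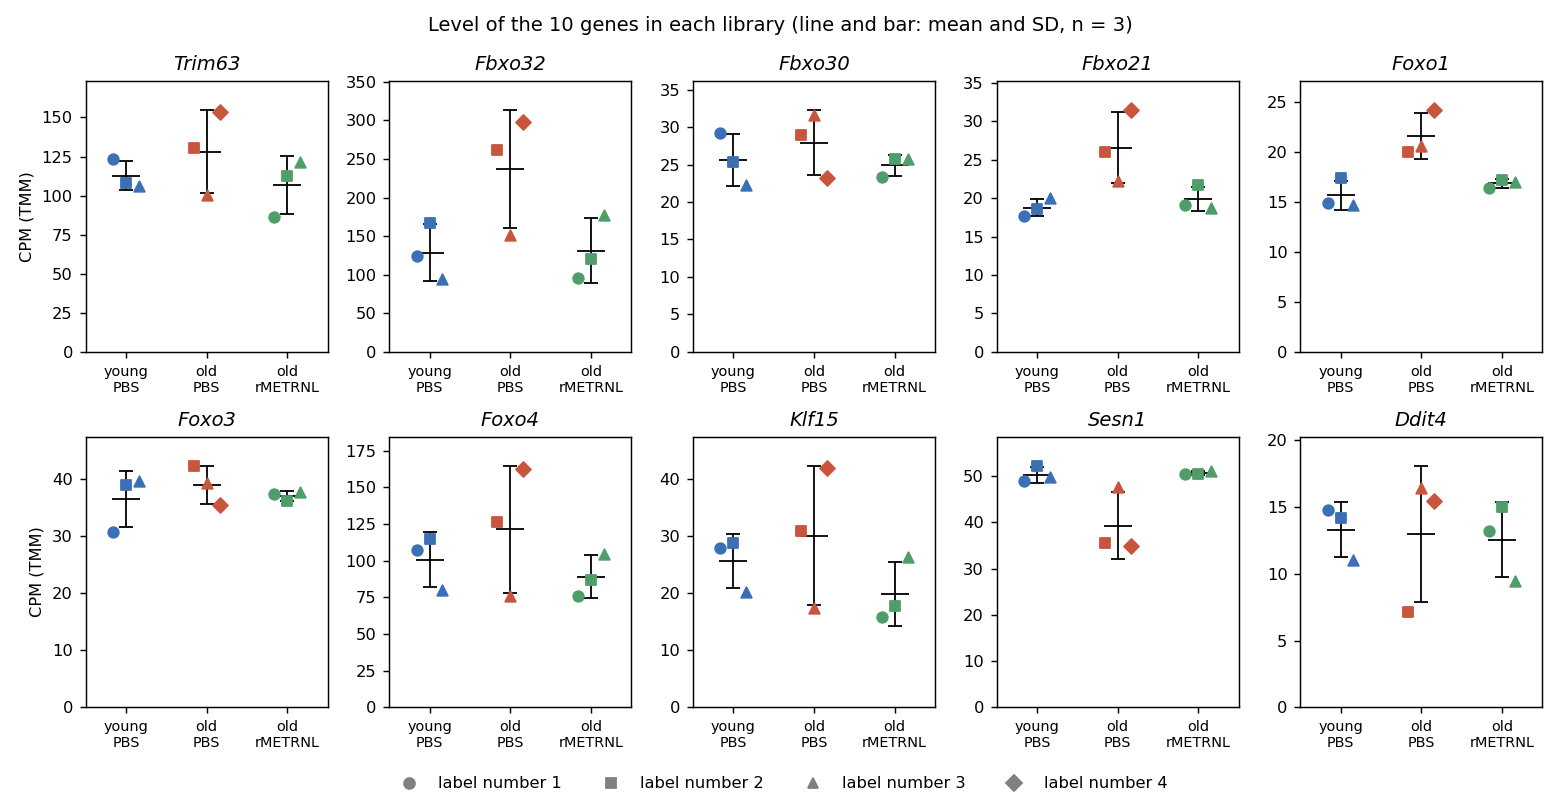
Level of each of the 10 genes in every library (vertical axes, CPM with TMM factors, from 0) by group (horizontal axes). Points are libraries, their shape is the number in the label, and the line and bar are the mean and SD of 3 libraries. Old PBS 4 is the highest point for 6 genes, and for Fbxo21 and Foxo1 the 3 old PBS points lie above all others.

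Fbxo32 encodes the substrate-binding subunit of an SCF ligase that acts on MyoD and on a translation initiation factor. Its level was 124, 167 and 94.8 CPM in the young PBS libraries 1, 2 and 3. It was 261, 151 and 298 CPM in old PBS 2, 3 and 4, and 95.1, 120 and 177 CPM in old rMETRNL 1, 2 and 3. Old PBS 2 and old PBS 4 lay above all 6 other libraries, while old PBS 3 fell within their range. The difference was 0.88 ± 0.30 (SE, log2) for old PBS against young PBS (edgeR adjusted p = 0.670) and -0.86 ± 0.31 for old rMETRNL against old PBS (edgeR adjusted p = 0.496). DESeq2's adjusted p for these differences was 0.158 and 0.162. On CPM without TMM factors, where old PBS 3 was at 176 CPM, the old PBS group lay above young PBS and old rMETRNL without overlap.

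Trim63 encodes MuRF1, a RING-finger ligase of the sarcomere that acts on thick filament proteins. It stood at 123, 108 and 106 CPM in young PBS 1, 2 and 3. The old PBS libraries 2, 3 and 4 held 130, 101 and 154 CPM, and the old rMETRNL libraries 1, 2 and 3 held 86.2, 113 and 122 CPM. The 3 groups overlapped, and the level of old PBS 3 was under those of all young PBS libraries. The differences were 0.18 ± 0.20 (SE, log2; edgeR adjusted p = 0.994) for old PBS against young PBS and -0.27 ± 0.21 (edgeR adjusted p = 0.772) for old rMETRNL against old PBS. Within 2 SEs these differences include 0 as well as the sizes fitted for Foxo1, so neither was excluded for Trim63.

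Fbxo21 (SMART) and Fbxo30 (MUSA1) encode further F-box subunits of SCF ligases that were described as FoxO targets in atrophying muscle. Fbxo21 was at 17.7, 18.6 and 19.96 CPM in young PBS 1, 2 and 3. It reached 26.0, 22.2 and 31.4 CPM in old PBS 2, 3 and 4 and was at 19.1, 21.7 and 18.8 CPM in old rMETRNL 1, 2 and 3. The lowest old PBS value, 22.2 CPM, lay just above the highest value of the other groups, 21.7 CPM, so the groups did not overlap. The differences were 0.50 ± 0.17 (SE, log2; edgeR adjusted p = 0.684) and -0.42 ± 0.18 (edgeR adjusted p = 0.594). The gap also held without TMM factors, at 23.8 CPM against 23.2 CPM, but not per length. Fbxo30 was at 29.2, 25.4 and 22.2 CPM in young PBS, 28.9, 31.7 and 23.1 CPM in old PBS and 23.3, 25.7 and 25.7 CPM in old rMETRNL. Its groups overlapped, with differences of 0.13 ± 0.18 and -0.17 ± 0.17 (SE, log2), and unlike the other ligases it was highest in old PBS 3.

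Foxo1 encodes a FoxO factor that acts on the ligase genes and on genes of fuel use such as Pdk4. It was at 14.9, 17.4 and 14.7 CPM in young PBS 1, 2 and 3. It was at 19.99, 20.7 and 24.2 CPM in old PBS 2, 3 and 4, and at 16.4, 17.2 and 17.0 CPM in old rMETRNL 1, 2 and 3. All old PBS libraries lay above all others, and this included old PBS 3. The differences were 0.46 ± 0.16 (SE, log2; edgeR adjusted p = 0.695) and -0.36 ± 0.16 (edgeR adjusted p = 0.618). Without TMM factors old PBS 2 (18.3 CPM) fell just under old rMETRNL 2 (18.4 CPM), while old PBS still lay above young PBS.

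Foxo3 encodes the factor best known for driving both Fbxo32 and autophagy genes in muscle. It was at 30.7, 38.9 and 39.5 CPM in young PBS, 42.1, 39.2 and 35.4 CPM in old PBS and 37.3, 36.02 and 37.7 CPM in old rMETRNL. It varied least between the groups among the FoxO genes, with differences of 0.094 ± 0.16 and -0.076 ± 0.14 (SE, log2), and it was the gene least variable within old PBS. Foxo4 encodes the FoxO factor of the X chromosome. Its level was 108, 115 and 79.7 CPM in young PBS 1, 2 and 3, 126, 76.0 and 162 CPM in old PBS 2, 3 and 4, and 76.0, 86.6 and 105 CPM in old rMETRNL 1, 2 and 3. Old PBS 2 and old PBS 4 were its highest libraries, and old PBS 3 and old rMETRNL 1 its lowest. The differences of Foxo4 were 0.27 ± 0.28 (SE, log2; edgeR adjusted p = 0.994) and -0.45 ± 0.27 (edgeR adjusted p = 0.708).

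Klf15 encodes a zinc-finger factor that the glucocorticoid receptor induces and that acts on the ligase genes and on branched-chain amino acid breakdown. It was at 27.8, 28.7 and 20.2 CPM in young PBS 1, 2 and 3. It was at 30.9, 17.4 and 41.8 CPM in old PBS 2, 3 and 4, and at 15.8, 17.6 and 26.3 CPM in old rMETRNL 1, 2 and 3. Like Foxo4, it was high in old PBS 2 and old PBS 4 and low in old PBS 3, so that the old PBS group spanned the range of the others. The differences were 0.23 ± 0.30 (SE, log2; edgeR adjusted p = 0.994) and -0.59 ± 0.32 (edgeR adjusted p = 0.680).

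Sesn1 and Ddit4 (REDD1) encode stress-induced inhibitors of mTORC1, the kinase complex that drives protein synthesis. Sesn1 was at 49.0, 52.3 and 49.8 CPM in young PBS 1, 2 and 3 and at 50.6, 50.4 and 51.2 CPM in old rMETRNL 1, 2 and 3. It was at 35.5, 47.6 and 34.9 CPM in old PBS 2, 3 and 4. All 3 old PBS libraries were lower than the other 6, and old PBS 3 only slightly so. The differences were -0.36 ± 0.17 (SE, log2; edgeR adjusted p = 0.895) and 0.36 ± 0.17 (edgeR adjusted p = 0.643). Without TMM factors old PBS 3 was the highest library for Sesn1, at 55.4 CPM, and the groups overlapped. Ddit4 was at 14.8, 14.1 and 10.99 CPM in young PBS, 7.13, 16.4 and 15.5 CPM in old PBS and 13.2, 15.0 and 9.45 CPM in old rMETRNL. Its low value in old PBS 2 rested on 106 counts, and its differences were -0.033 ± 0.31 and -0.059 ± 0.32 (SE, log2).

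Taken as a list, 8 of the 10 genes were higher in old PBS than in young PBS and 2 lower, with a median log2 fold change of 0.21 against 0.014 over all genes tested. Taken from the group means, the median of the 10 genes was 0.11 without TMM factors and 0.063 per length, against -0.041 and -0.087 over all genes. Per length, Foxo3 also had the lower mean in old PBS. In old rMETRNL against old PBS, 1 gene was higher and 9 lower, with a median of -0.31 against -0.0056 over all genes. From the group means it was -0.19 without TMM factors and -0.23 per length, against 0.094 and 0.053 over all genes. Without TMM factors, Foxo3, Sesn1 and Ddit4 had the higher mean in old rMETRNL. Groups did not overlap for 2 genes that were higher and 1 that was lower in old than in young PBS, beside 5.26% and 5.25% of all genes. In old rMETRNL against old PBS this held for 1 gene that was higher and 2 that were lower, beside 6.99% and 5.69%.

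**Figure D2:**
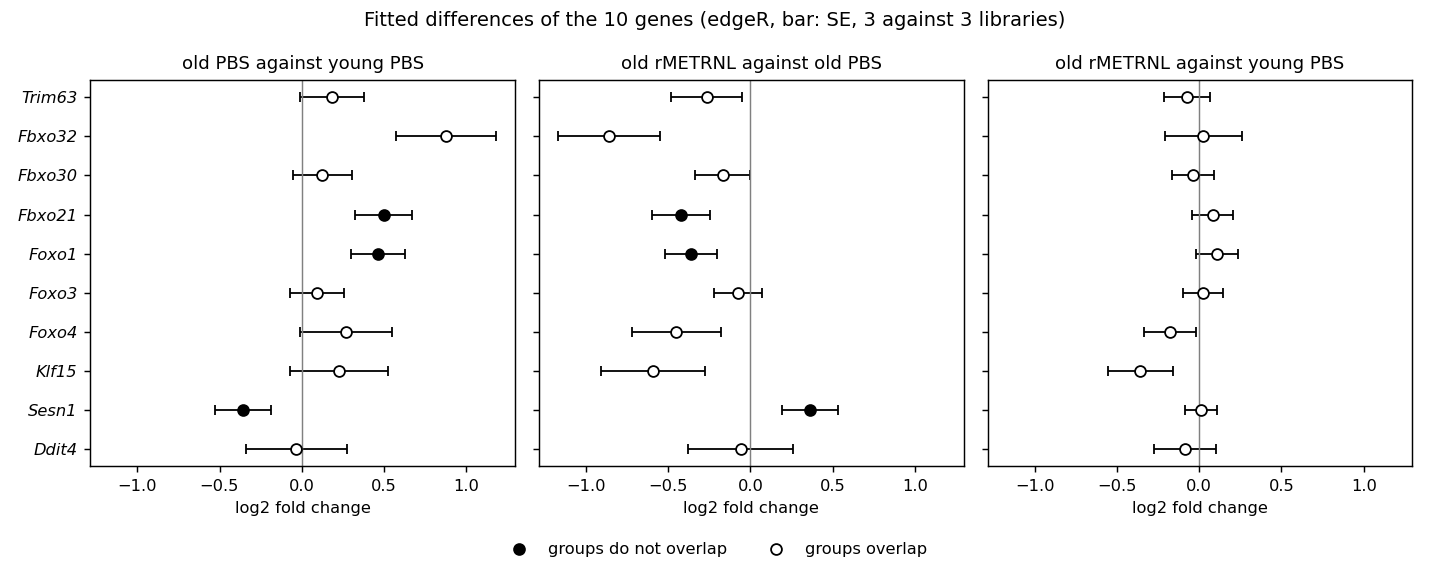
Fitted log2 fold changes of the 10 genes (horizontal axes) in the 3 comparisons, with the SE as bars (edgeR, 3 against 3 libraries). Filled points are genes whose 2 groups do not overlap in CPM. Fbxo32 lies farthest from 0 in the comparisons with old PBS (0.88 and -0.86), and in old rMETRNL against young PBS no filled point appears.

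Old rMETRNL was then compared with young PBS. The groups overlapped for all 10 genes, beside 3.94% of all genes without overlap that were higher and 2.96% that were lower. Klf15 had the largest difference, -0.36 ± 0.20 (SE, log2; edgeR adjusted p = 0.9996), followed by Foxo4 at -0.18 ± 0.16. The other 8 genes differed by between -0.088 (Ddit4) and 0.11 (Foxo1), with SEs between 0.098 (Sesn1) and 0.23 (Fbxo32). For Fbxo32, at 0.024 ± 0.23, a difference of the size of its SE could not be seen with these libraries. The median was -0.015 over the 10 genes and 0.00089 over all genes tested.

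The old PBS libraries differ in their content of fibre transcripts, so the genes were also expressed relative to it, as log2 CPM minus the mean log2 CPM of 20 mature fibre genes of the same library. Fbxo32 relative to fibre transcripts was -5.12, -4.72 and -5.29 in young PBS 1, 2 and 3, -4.13, -4.29 and -4.05 in old PBS 2, 3 and 4, and -5.28, -4.96 and -4.59 in old rMETRNL 1, 2 and 3. On this scale old PBS 3 moved up to its group, and all old PBS libraries lay above all others. The difference was 0.89 for old PBS against young PBS and -0.79 for old rMETRNL against old PBS, each with an exact two-sided permutation p of 0.1, which is the smallest that 3 against 3 libraries allow, and an adjusted p of 0.5 over the 30 tests of this kind.

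On the same scale Trim63 still overlapped in all comparisons, with differences of 0.20 (exact permutation p = 0.3) and -0.20 (exact permutation p = 0.2). Fbxo21 and Foxo1 lay higher in old PBS than in young PBS without overlap, by 0.52 and 0.49, and Foxo4 lay lower in old rMETRNL than in old PBS, by 0.33 in size. Foxo1 was also higher in old rMETRNL than in young PBS, by 0.20. Fbxo21 and Foxo1 overlapped between old rMETRNL and old PBS, and Sesn1 overlapped in all comparisons, with old PBS 3 (-5.95) above every other library. In old PBS against young PBS 3 of the 10 genes were thus higher without overlap and 0 lower, beside 7.16% and 0.951% of all genes on this scale. In old rMETRNL against old PBS 0 were higher and 2 lower, beside 1.67% and 7.01%, and in old rMETRNL against young PBS 1 was higher and 0 lower, beside 5.05% and 1.33%. The list of fibre genes is itself lower in old PBS 3 (mean log2 CPM 11.5) than in the other libraries (11.9 to 12.3), which raises all genes of that library on this scale.

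**Figure D3:**
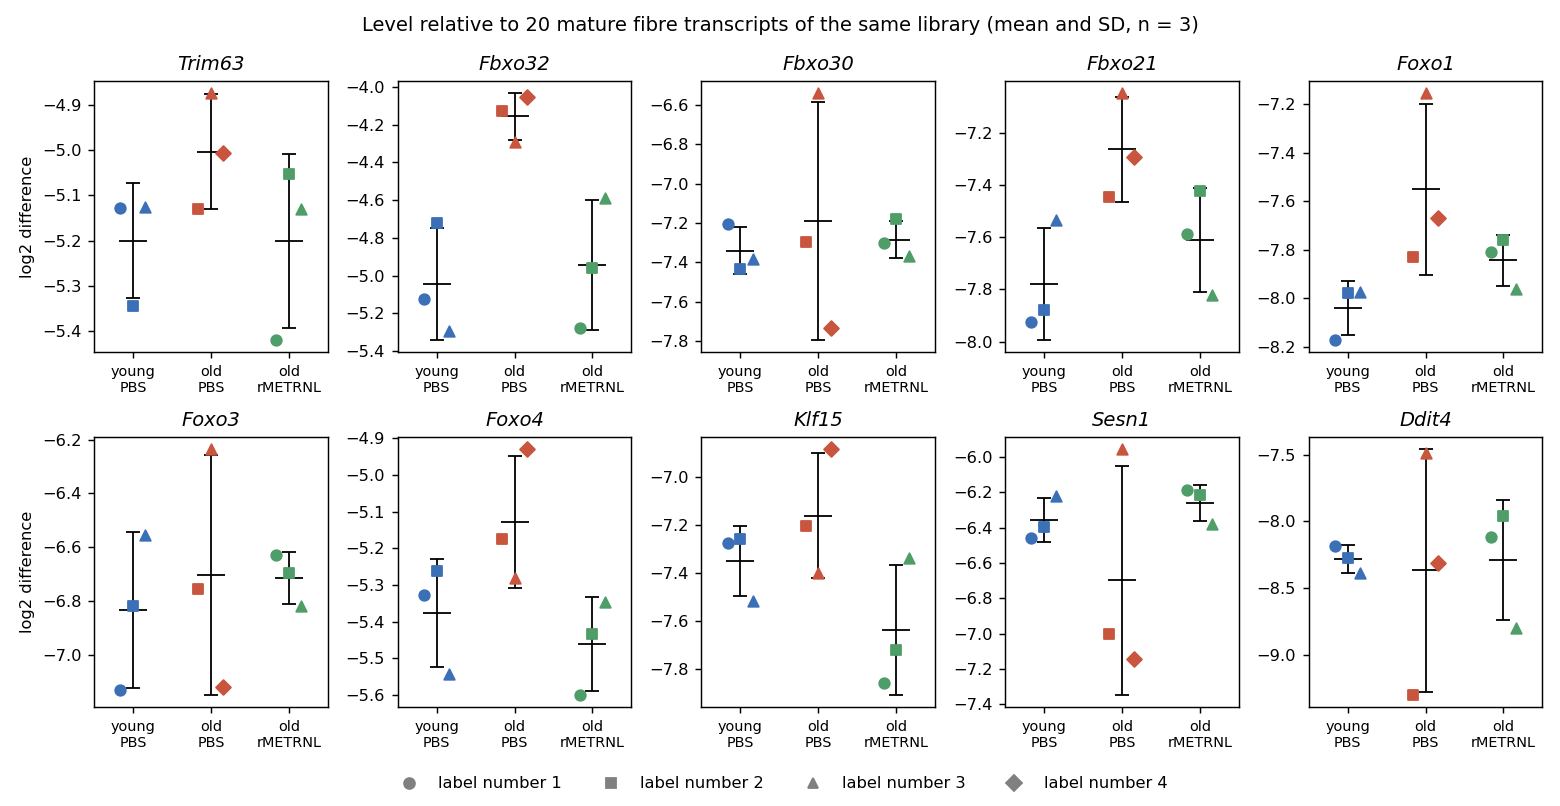
Level of each gene relative to 20 mature fibre transcripts of the same library (vertical axes, log2 difference, not starting at 0) by group. Points are libraries with the number of the label as shape, and line and bar are the mean and SD of 3 libraries. For Fbxo32 the 3 old PBS points, from -4.29 to -4.05, lie above all others, of which the highest is -4.59.

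Old PBS 3 decided several of the calls. Without it, Fbxo32 passed the threshold in old PBS against young PBS (1.11 on the log2 scale, edgeR adjusted p = 0.0495), where 2.52% of 15884 genes passed. In old rMETRNL against old PBS without it, Fbxo32 (-1.10, edgeR adjusted p = 0.0220), Klf15 (-0.87, edgeR adjusted p = 0.0422) and Foxo4 (-0.70, edgeR adjusted p = 0.0442) passed, where 9.76% of 15981 genes passed. The group then consisted of old PBS 2 and old PBS 4, the libraries with the largest share of mitochondrial transcripts and the lowest sums of macrophage, fibro-adipogenic and endothelial markers. With no filter on low counts and all libraries, Fbxo32 passed in old rMETRNL against old PBS (-0.84, edgeR adjusted p = 0.0306), where 2.55% of 28995 genes passed.

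The genes around the 10 were read in 6 lists, and with all libraries and the filter on low counts no gene of any list passed edgeR's adjusted threshold in any of the 3 comparisons. Without old PBS 3, 4 genes of the lists passed in old PBS against young PBS (Pdk4, Hsd11b1 and Dach2 higher, Myog lower) and 24 in old rMETRNL against old PBS, 4 of them higher and 20 lower. Those 24 were 8 of the ligase list, 2 of the autophagy list, 6 of the FoxO targets, 5 of the glucocorticoid response and 3 of the denervation and injury list, beside the 9.76% of all genes that passed. With no filter and all libraries, 7 genes of the lists passed in old PBS against young PBS, where 1.23% of all genes passed, 10 in old rMETRNL against old PBS and 0 in old rMETRNL against young PBS. Of 28 other ligase and ubiquitin genes, 23 were higher and 5 lower in old than in young PBS (median log2 fold change 0.13), and 7 were higher and 21 lower in old rMETRNL than in old PBS (median -0.16). Cblb, a ligase of insulin receptor substrate signalling, was at 19.7 to 22.7 CPM in young PBS and 25.7 to 27.2 CPM in old PBS, and its groups did not overlap (0.33 ± 0.14, SE, log2; edgeR adjusted p = 0.854). Psmd11, a subunit of the proteasome lid, was at 90.4 to 127 CPM in old PBS and 80.6 to 88.7 CPM in old rMETRNL (-0.36 ± 0.18; edgeR adjusted p = 0.662). Asb2, a muscle ligase of the SOCS box type, was called in that comparison by DESeq2 and not by edgeR (adjusted p = 0.0481). It was at 330.0, 160 and 352 CPM in old PBS 2, 3 and 4 against 111 to 177 CPM in old rMETRNL, so that old PBS 3 overlapped. The median of the list was -0.033 in old rMETRNL against young PBS, and the named genes were Cblb (0.15 ± 0.12) and Asb2 (-0.48 ± 0.19), whose groups overlapped.

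Of 22 autophagy genes under FoxO control, 18 were higher and 4 lower in old than in young PBS (median 0.083), and 6 were higher and 16 lower in old rMETRNL than in old PBS (median -0.13). No gene of the list had an unadjusted p under 0.05 with all libraries, whereas without old PBS 3 Pink1 (edgeR adjusted p = 0.0268) and Bnip3 (edgeR adjusted p = 0.0361) were lower in old rMETRNL than in old PBS past the threshold. Pink1, the kinase that marks damaged mitochondria, was at 316 to 488 CPM in young PBS and at 607, 301 and 950 CPM in old PBS 2, 3 and 4 (0.57 ± 0.39, SE, log2). Ctsl, a lysosomal protease, differed by -0.15 ± 0.18 in the same comparison. Pik3c3, the lipid kinase that starts the autophagosome, was at 21.9 to 26.5 CPM in old PBS and 21.0 to 21.5 CPM in old rMETRNL, and these groups did not overlap (-0.21 ± 0.15). Between old rMETRNL and young PBS, 11 genes were higher and 11 lower, between Bnip3 (-0.18 ± 0.24) and Atg14 (0.11 ± 0.15).

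Of 20 other FoxO target genes, 13 were higher and 7 lower in old than in young PBS (median 0.15), and 8 were higher and 12 lower in old rMETRNL than in old PBS (median -0.26). Pdk4, the kinase that shuts pyruvate out of oxidation, was at 107, 118 and 151 CPM in young PBS, 293, 356 and 1452 CPM in old PBS 2, 3 and 4, and 114, 137 and 140.3 CPM in old rMETRNL. All old PBS libraries lay above all others, and old PBS 4 was far above the rest of its group. Its differences were 2.47 ± 0.58 (SE, log2; edgeR adjusted p = 0.245) and -2.43 ± 0.57 (edgeR adjusted p = 0.190). Gadd45a, a stress-response gene, and Cat, which encodes catalase, were also without overlap in both comparisons, and were named after their values were seen. Gadd45a was at 19.2 to 25.8 CPM in young PBS, 32.8 to 51.2 CPM in old PBS and 17.3 to 24.5 CPM in old rMETRNL, and DESeq2 called it in both comparisons (adjusted p = 0.0103 and 0.00373). Bcl6, a transcriptional repressor, was at 84.8 to 89.0 CPM in young PBS and 56.5 to 74.4 CPM in old PBS (-0.40 ± 0.16, SE, log2), and Cited2, a coactivator-binding protein, was at 42.1 to 43.0 CPM in old PBS and 47.4 to 50.9 CPM in old rMETRNL (0.20 ± 0.14). The median of the list was -0.010 in old rMETRNL against young PBS, between Mstn (-0.44 ± 0.34) and Txnip (0.19 ± 0.14).

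Of 15 glucocorticoid response genes tested, 11 were higher and 4 lower in old than in young PBS (median 0.38), and 3 were higher and 12 lower in old rMETRNL than in old PBS (median -0.44). This was the list with the medians farthest from 0, beside 0.014 and -0.0056 over all genes tested. Per1, a clock gene that the glucocorticoid receptor induces, was at 39.0, 40.2 and 26.9 CPM in young PBS, 55.4, 63.5 and 82.7 CPM in old PBS, and 24.7, 31.2 and 35.96 CPM in old rMETRNL. The old PBS libraries lay above all others, with differences of 0.92 ± 0.22 (SE, log2; edgeR adjusted p = 0.242) and -1.14 ± 0.21 (edgeR adjusted p = 0.0962), and DESeq2 called both (adjusted p = 0.0225 and 0.000567). Hsd11b1, the enzyme that regenerates active glucocorticoid, was at 3.78 to 6.71 CPM in young PBS, 15.1, 7.08 and 22.5 CPM in old PBS 2, 3 and 4, and 3.17 to 7.12 CPM in old rMETRNL. Old PBS 3 lay just above young PBS but just under old rMETRNL 1 (7.12 CPM), so that old PBS overlapped with old rMETRNL. The differences of Hsd11b1 were 1.42 ± 0.41 (edgeR adjusted p = 0.457) and -1.53 ± 0.43 (edgeR adjusted p = 0.329). Fkbp5, a chaperone of the glucocorticoid receptor named after its values were seen, was at 18.7 to 26.0 CPM in young PBS, 34.3 to 50.1 CPM in old PBS and 19.9 to 21.5 CPM in old rMETRNL. DESeq2 called Fkbp5 and Hsd11b1 in both comparisons too. Nr3c1, which encodes the receptor itself, was at 148.5 to 149.8 CPM in young PBS, 113 to 174 CPM in old PBS and 150.3 to 151 CPM in old rMETRNL, and thus did not stand apart in old PBS.

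Of 22 genes upstream of FoxO and mTORC1, 18 were higher and 4 lower in old than in young PBS (median 0.13), and 2 were higher and 20 lower in old rMETRNL than in old PBS (median -0.15). Foxo6, the remaining FoxO gene, was at 17.5, 16.6 and 15.5 CPM in young PBS, 11.04, 11.97 and 6.48 CPM in old PBS, and 9.37, 12.8 and 14.0 CPM in old rMETRNL. It was the FoxO gene whose old PBS level lay under that of young PBS without overlap (-0.75 ± 0.25, SE, log2; edgeR adjusted p = 0.619), and it was also lower in old rMETRNL than in young PBS without overlap (-0.45 ± 0.16). Against old PBS, Foxo6 in old rMETRNL differed by 0.29 ± 0.27. Sirt1, a deacetylase of FoxO proteins, was at 15.8 to 16.6 CPM in young PBS and 17.2 to 21.6 CPM in old PBS (0.24 ± 0.16), and Akt2, a kinase that keeps FoxO proteins out of the nucleus, was at 216 to 299.9 CPM in old PBS and 184 to 224 CPM in old rMETRNL (-0.41 ± 0.20). Of 23 denervation and injury regulators tested, 11 were higher and 12 lower in old than in young PBS (median -0.0083), and 12 were higher and 11 lower in old rMETRNL than in old PBS (median 0.017). Dach2, a repressor of myogenin that denervation lowers, was at 8.21, 0.524 and 11.0046 CPM in old PBS 2, 3 and 4 and 0.677 to 2.27 CPM in young PBS, so old PBS 3 was the lowest of these libraries. Tnf was low, at 0.943 to 1.13 CPM in young PBS and 0.471 to 0.943 CPM in old PBS, and these groups overlapped (-0.69 ± 0.45). Tnfsf12, which encodes the atrophy-inducing cytokine TWEAK, was at 4.98 to 6.98 CPM in old PBS and 8.43 to 9.96 CPM in old rMETRNL (0.54 ± 0.21). Myog (0.38 ± 0.14) was higher and Smad3 (-0.21 ± 0.12) lower in old rMETRNL than in young PBS without overlap, and neither passed the adjusted threshold of edgeR.

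**Figure D4:**
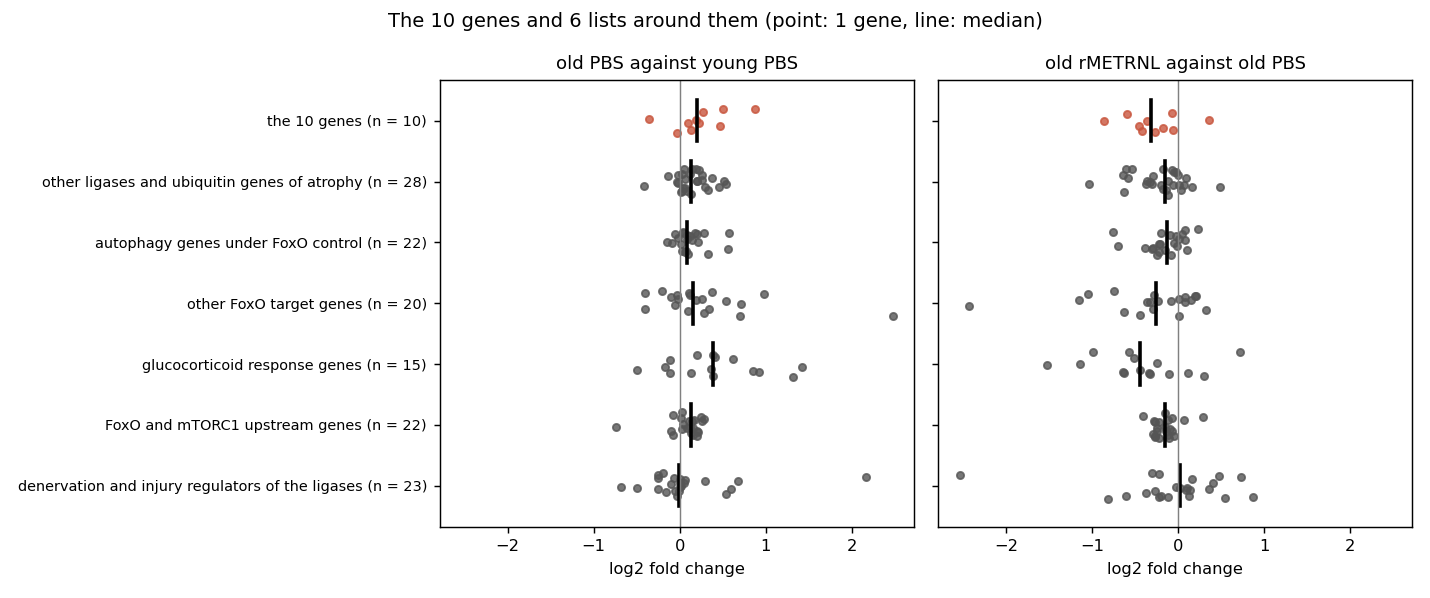
Log2 fold changes (horizontal axes) of the 10 genes and of the genes of 6 lists (rows, with the number tested) in the 2 comparisons with old PBS. Each point is a gene and the black line is the median of its row. Among the rows shown, the glucocorticoid response genes have the medians farthest from 0, at 0.38 and -0.44.

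Levels of different genes were compared per length, as TPM-like values from counts per kilobase of exon. By mean over the 9 libraries Trim63 was first at 107, followed by Foxo4 at 77.0, Fbxo32 at 60.8, Sesn1 at 31.9, Klf15 at 23.1, Ddit4 at 19.95, Fbxo30 at 13.5, Foxo3 at 13.4, Fbxo21 at 10.4 and Foxo1 at 5.54. Trim63 lay above Fbxo32 in all 9 libraries on this scale, by 1.22 times in old PBS 2 (117 against 95.6) to 2.75 times in young PBS 3 (118 against 43.0), and the mean of the 9 ratios was 1.90. Foxo4 was the most abundant of the 3 FoxO genes in every library, between 62.9 and 95.0, and Foxo1 the least, between 3.91 and 7.85. The neighbours Fbxo30 and Foxo3 could not be ordered, since their ranges (8.52 to 20.1 and 8.95 to 17.0) covered each other, and neither could Klf15 and Ddit4. The ranges of the other neighbours in this order also overlapped, except those of Fbxo32 (40.3 to 95.6) and Sesn1 (16.8 to 39.6). In old PBS 2, Fbxo32 lay above Foxo4 (95.6 against 92.4), so the order is one of means. With the length of the longest transcript, Foxo3, Fbxo21 and Fbxo30 stood in that order. Per length, a scale that uses no TMM factors, Fbxo32 was the only one of the 10 without overlap between old PBS and young PBS, at 71.3 to 95.6 against 40.5 to 69.2. The share of all genes without overlap was not computed on this scale.

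**Figure D5:**
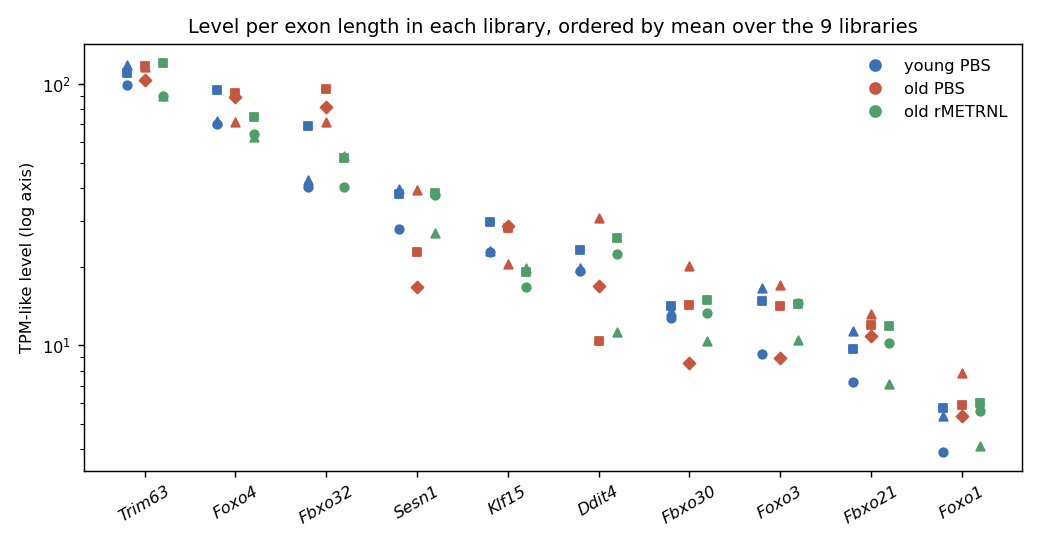
Level per exon length of each gene in every library (vertical axis, TPM-like value, log axis), with genes ordered by their mean over the 9 libraries. Colours are groups and shapes the number of the label, with circle, square, triangle and diamond for 1 to 4. Trim63 has the highest mean (107) and Foxo1 the lowest (5.54).

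The genes whose levels were most like those of the main ligases were sought among 14176 genes with a mean of at least 1 CPM, by Pearson's r of log2 CPM over the 9 libraries. For Fbxo32 these were Fgfbp1 (r = 0.98), Srcin1 (r = 0.98) and Ttc7b (r = 0.98). Fgfbp1 was at 5.52, 0.874 and 9.31 CPM in old PBS 2, 3 and 4 and at 0.161 to 2.22 CPM in the other libraries, the same order of old PBS libraries as for Fbxo32. For Trim63 they were Gm37691 (r = 0.99), Sgf29 (r = 0.96) and Cyp2c23 (r = 0.96). Cyp2c23 was at 2.40 to 6.35 CPM in old PBS and 1.23 to 2.89 CPM elsewhere. The points share library composition and the groups, and with Spearman's rho in place of Pearson's r only 1 of the 6 genes was still among the first 3.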

How the data were processed

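Total RNA of injured tibialis anterior muscle was measured in 9 libraries (NEBNext Ultra kit, paired-end reads). The authors deposited raw counts of reads per gene, neither normalized nor pooled, and all 9 columns were used. Per the labels, the submitters' processing notes name STAR, featureCounts and mm9. Strand setting and annotation are not given in the sources used here. Of 54532 genes, 54409 had a symbol and 24310 were at 0 in every library. Totals ran from 16238700 to 22522560 counts, and replicates of a group differed by a chi-square per degree of freedom of 10.9 to 169.

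Each comparison was fitted on the 6 libraries concerned by edgeR 4.0.16 under R 4.3.3 (filterByExpr, TMM, glmQLFit and glmQLFTest, Benjamini-Hochberg adjustment over all genes tested, threshold 0.05). SEs were derived from the fold change and F statistic. CPM used TMM factors from all 9 libraries, and log2 CPM a prior count of 2. TPM-like values used exon unions of GENCODE M21 (GRCm38). DESeq2 1.42.0 with defaults was an alternative, as were another filter, a joint fit of the 9 libraries, a replicate block and leaving out single libraries. The scripts were tested on simulated data. The 10 genes, the lists and the rule for named genes were chosen with earlier results of these data known. The rule named all 10 genes and, where no list gene passed the threshold, the largest rise and fall in each list among genes whose groups do not overlap, or else among all tested, and the 3 genes most like Trim63 and Fbxo32.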

Additional observations from a re-analysis of the deposited data

How the results depend on the processing

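In old PBS against young PBS, 10 genes were called by edgeR, 354 with no filter on low counts, 3 with at least 10 counts in every library, 265 by DESeq2 and 63 in a fit of all 9 libraries, and 2 to 401 with single libraries left out. In old rMETRNL against old PBS these numbers were 17, 740, 1, 354, 71 and 3 to 1560, and in old rMETRNL against young PBS 0, 132 with no filter and 0 to 1 with libraries left out. The highest numbers in the comparisons with old PBS came without old PBS 3. The number of the 10 genes called was 0 to 1, 0 to 3 and 0 with libraries left out, and 1 in old rMETRNL against old PBS with no filter. The cause of these shifts was not tested.

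Their median log2 fold change was 0.097 to 0.41, -0.40 to -0.24 and -0.12 to 0.016 with libraries left out. Of the 360 values of single genes under alternatives, 335 kept direction and side of the threshold, 5 passed the threshold anew and 20 changed sign. With libraries left out, the sign changed in old PBS against young PBS for Foxo3 (-0.015 to 0.16), Klf15 (-0.088 to 0.50) and Ddit4 (-0.24 to 0.26), and in old rMETRNL against old PBS for Ddit4 (-0.35 to 0.15). In old rMETRNL against young PBS it changed for Trim63 (-0.18 to 0.056), Fbxo32 (-0.26 to 0.26), Fbxo30 (-0.13 to 0.060), Foxo3 (-0.089 to 0.087), Sesn1 (-0.014 to 0.039) and Ddit4 (-0.23 to 0.083). Fbxo32, Fbxo30, Fbxo21, Foxo1, Foxo4 and Sesn1 kept their sign in both comparisons with old PBS under every alternative. In old PBS against young PBS, Fbxo30 and Foxo4 came close to 0 with libraries left out (lowest values 0.020 and 0.0047).

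The labels do not say whether libraries of the same number belong together. Deviations of same-numbered libraries from their group means correlated at -0.32 to 0.41, and over 0.1 in 2 of 7 pairs. Those of unlike number spread as widely, from -0.44 (young PBS 3 with old PBS 4) to 0.38 (young PBS 1 with old PBS 4). With 3 libraries in a group, such correlations cannot decide whether the libraries are paired, and the main fits used no pairing. With the replicate number as a block, 65 genes were called in old rMETRNL against old PBS, and the medians of the 10 genes were 0.072 and -0.13. The sign changed for Klf15 (-0.050) in old PBS against young PBS and for Trim63 (0.025) and Ddit4 (0.11) in old rMETRNL against old PBS. In the comparisons with old PBS, numbers 1 and 4 each occur in only 1 group. The block fit there rests on the libraries numbered 2 and 3, so old PBS 4 does not enter the difference. These shifts therefore cannot be read as an effect of pairing.

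Relative to fibre transcripts, 6 of 30 comparisons had no overlap, beside 0.951% to 7.16% of all genes in each direction of a comparison. With libraries left out this number was 5 to 11. Smaller groups are without overlap more easily for any gene, and the share of all genes was not computed for them. Genes without overlap on other scales were examined after seeing the data. Per length they numbered 1 (Fbxo32) in old PBS against young PBS, 2 (Fbxo32 and Klf15) in old rMETRNL against old PBS and 1 (Klf15) in old rMETRNL against young PBS, in place of 3, 3 and 0. The share of all genes without overlap per length was not computed, so these counts cannot be set against a background. The mean of the 9 ratios of Trim63 to Fbxo32 was 2.87 with the longest transcripts, and 1 of the 6 genes most alike was kept with Spearman's rho. The lowest value of the 10 genes rested on 106 counts.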

Other observations

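Fbxo32 and Trim63 are usually read together, and their ratio within a library was examined after their values were seen. On the log2 CPM scale, Fbxo32 minus Trim63 was 0.0067, 0.63 and -0.17 in young PBS 1, 2 and 3, 1.004, 0.58 and 0.96 in old PBS 2, 3 and 4, and 0.14, 0.092 and 0.54 in old rMETRNL 1, 2 and 3. The old PBS libraries lay above all old rMETRNL libraries (difference -0.59, exact two-sided permutation p = 0.1, the smallest that 3 against 3 libraries allow), while young PBS 2 overlapped with old PBS (0.69, exact permutation p = 0.2).

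The genes most like Fbxo21 and Foxo1 over the 9 libraries, also looked up after the values were seen, were Atp2b2 (r = 0.98), Rgs8 (r = 0.97) and Dpyd (r = 0.95) for Fbxo21 and S100b (r = 0.96), Camk2n1 (r = 0.96) and Fam107a (r = 0.95) for Foxo1. Fam107a was at 5.11, 7.29 and 12.6 CPM in old PBS 2, 3 and 4 and at 0.338 to 1.22 CPM in the other libraries. S100b was at 3.41 to 10.9 CPM in old PBS and 0.507 to 2.14 CPM elsewhere. Atp2b2, Rgs8, S100b and Camk2n1 are known for their expression in brain, and the mean log2 CPM of the brain markers was also higher in all old PBS libraries. Their summed CPM, however, was 249 in old PBS 3, within the 218 to 319 of the other groups. The part of brain transcripts in the level of Fbxo21 and Foxo1 was not tested.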
